A study of Rattus norvegicus with 10 samples.

Results

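The genes of Wnt signalling and of the pericentral hepatocytes that it maintains were followed in rat liver. The list holds 10 genes: Glul, Axin2, Lgr5, Tbx3, Lef1, Tcf7l2, Rnf43, Ctnnb1, Rspo3 and Wnt2. Probes of the members were found by matching the accession of each array probe to the RefSeq transcripts of these symbols. This matching used no measured value, but the list itself was chosen with earlier results of these data known. Of the 10 genes, 8 had a probe, out of 13837 genes named on the array, and no probe matched Tcf7l2 or Wnt2, which were not analysed here. The 8 genes were read by 10 probes, with 2 probes each for Glul and Ctnnb1.

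Livers came from male Sprague Dawley rats, and each rat gave 1 array. The control group had 3 rats that received only the solvent, propylene glycol. The SM group had 4 rats given sulfur mustard (SM), an alkylating blister agent, under the skin at 3.5 mg/kg, which is 0.7 of the median lethal dose (LD50). The SM + MSTF group had 3 rats given the same dose of SM and, 1 h later, 120 mg/kg of MSTF by stomach tube. MSTF combines 2 plant extracts, the salvianolic acids of Salvia miltiorrhiza and the flavonoids of Anemarrhena asphodeloides. All livers were taken 24 h after SM. Whole liver was measured, so fewer cells of a type and less RNA per cell cannot be told apart. The comparisons ask what SM alone did to liver gene expression and how it stood when MSTF followed.

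In the liver lobule, endothelial cells around the central vein secrete Wnt proteins and the R-spondin Rspo3. R-spondins bind Lgr receptors and take the ubiquitin ligases Rnf43 and Znrf3 away from the Wnt receptors, so that beta-catenin (Ctnnb1) is not degraded and enters the nucleus, where it acts with TCF/LEF factors. Hepatocytes next to the central vein then express Axin2, a negative feedback regulator of the pathway, and Glul, glutamine synthetase, which captures ammonia. Periportal hepatocytes, at the other end of the lobule, carry out the urea cycle and gluconeogenesis.

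Axin2 and Glul are the classical targets of this pathway in liver. Promoter windows of all members were searched for the letters of a TCF/LEF core, and those that held them are shown. RefSeq promoter windows of the assembly GRCr8, from 250 bases before to 50 bases after a start, were matched for 8 of the 10 genes, all but Lgr5 and Tbx3, with 9 windows in all. The letters CTTTGAT or CTTTGAA were searched on both strands, and 2 of the 9 windows held one. Each sequence is the first 150 bases of its window, 5′ to 3′ on the + strand, with the matched letters in capitals. The Axin2 stretch lies at chr10:94398535-94398684 and the Glul stretch at chr13:68519250-68519399.
Axin2: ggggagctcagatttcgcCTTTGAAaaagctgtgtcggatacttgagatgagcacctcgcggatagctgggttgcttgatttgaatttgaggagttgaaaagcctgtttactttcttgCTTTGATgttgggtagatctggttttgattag
Glul: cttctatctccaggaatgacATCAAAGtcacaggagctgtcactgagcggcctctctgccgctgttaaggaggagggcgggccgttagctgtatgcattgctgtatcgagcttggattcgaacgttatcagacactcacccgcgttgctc
In Axin2, CTTTGAA lay 232 and CTTTGAT 132 bases before the start. In Glul, CTTTGAT lay on the opposite strand, 230 bases before the start of 1 of its windows, and appears above as ATCAAAG. Of 33469 RefSeq windows of the same length, 3.63% held CTTTGAT, 5.4% held CTTTGAA and 8.73% held either, so a match is a description and not a binding site.

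No member passed the test in any comparison. Values are log2 of the quantile normalized signal of a probe, and a probe counted as changed at a limma adjusted p under 0.05 with at least 1.5-fold. Of the 10 member probes, 8 probes of 6 genes were tested, because Lgr5 and Lef1 were not well above background on every array of any group. SM against control gave 0 of the 8, beside 2.41% of all 22991 probes tested. SM + MSTF gave 0 against control, where 0% of all probes passed, and 0 against SM, where 1.26% passed. An unadjusted limma p under 0.05 was found for 3 of the 8 member probes in SM against control (Axin2, Rnf43 and a Ctnnb1 probe, beside 16.4% of all probes). SM + MSTF gave 2 against control (Rnf43 and the other Ctnnb1 probe, beside 9.54%) and 2 against SM (Axin2 and a Ctnnb1 probe, beside 15.9%). Groups whose arrays did not overlap were found for 0, 1 and 2 member probes in the same order, beside 18%, 15.4% and 14.7% of all probes. The methods' t-test with the fold minimum gave 1, 0 and 0 member probes, beside 4.92%, 1.24% and 3.75% of all probes, and the 1 was Axin2 in SM.

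**Figure D1:**
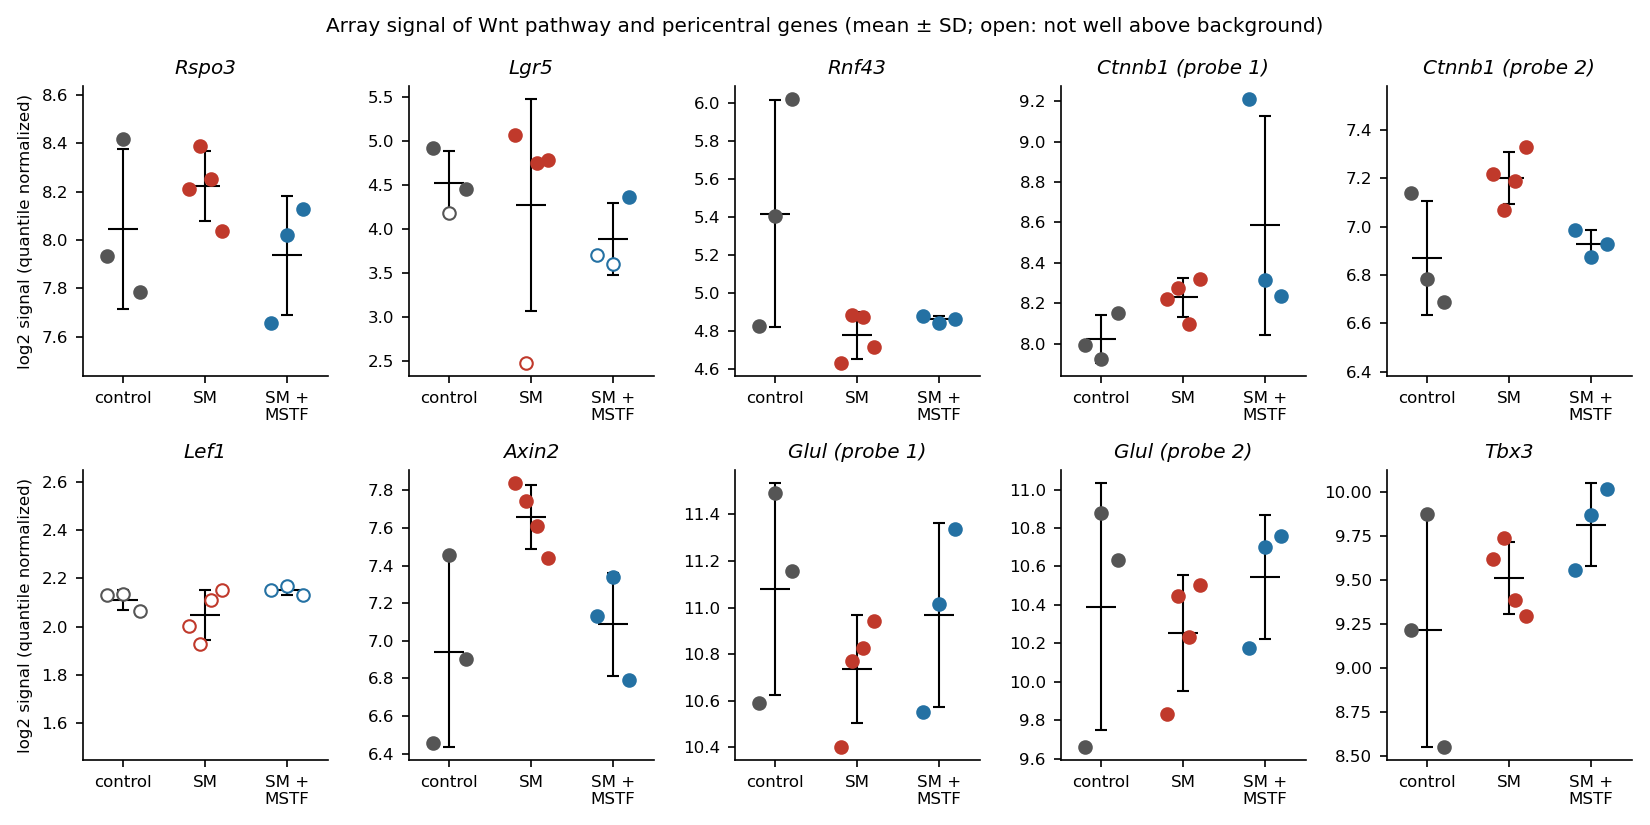
Log2 quantile normalized signal (vertical axis, a scale of its own for each probe) on every array of control (3), SM (4) and SM + MSTF (3), with the group mean and SD. Open points are arrays on which the probe was not well above background: Axin2 is highest in SM, where its 4 arrays lie between 7.44 and 7.84, and Lef1 is open on all 10 arrays.

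Axin2, the feedback regulator, showed the largest fitted difference of the members in SM versus control. Its log2 signal was 6.46, 7.46 and 6.90 in the control rats. In SM it was 7.84, 7.74, 7.61 and 7.44, and in SM + MSTF it was 7.13, 7.34 and 6.79. The SM arrays were close together and high, but control replicate 2 lay within their range. The SM mean was 7.66 ± 0.17 (SD, n = 4), and the control mean was 6.94 ± 0.50 (SD, n = 3). The difference was 0.72 on the log2 scale (SE 0.22), a 1.65-fold higher level with a 95% interval of 1.16 to 2.33, and limma's adjusted p was 0.141. All 3 SM + MSTF arrays lay below all 4 SM arrays, a difference of -0.57 (SE 0.22, adjusted p = 0.265). SM + MSTF stood 0.15 (SE 0.24, adjusted p = 0.868) above control. Without control replicate 1 the SM difference was 0.48, and without control replicate 2 it was 0.98.

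The markers of the other cells in these livers are given beside the Axin2 values. Cd79b, a subunit of the B cell receptor, had log2 signals of 6.42, 6.65 and 6.02 in control, 3.57, 4.28, 5.04 and 3.84 in SM, and 5.63, 3.09 and 6.21 in SM + MSTF. Its probe was well above background on 7 of 10 arrays. Its SM arrays lay below the control arrays, by -2.18 (SE 0.65, adjusted p = 0.125). The 7 stellate cell and fibroblast markers, all well above background on all 10 arrays, summed to 17596 to 21376.5 in control and 15540 to 17491 in SM. In SM + MSTF they summed to 12732 to 19803. Each such sum adds linear signal, so the brightest marker weighs most, here Col3a1 at a mean log2 signal of 13.44. The median SM minus control difference of the 7 markers was -0.09. Col1a1, a fibrillar collagen, was at -0.99 (adjusted p = 0.235) and Dcn, decorin, at 0.33 (adjusted p = 0.525). Between SM + MSTF and SM, where Axin2 was lower, the 6 Kupffer cell and macrophage markers had a median difference of 0.45. An unadjusted limma p under 0.05 was found there for 3 of the 6, beside 15.9% of all probes. The scavenger receptor Marco stood 0.96 higher there (SE 0.27, adjusted p = 0.147), with all SM + MSTF arrays above the SM arrays. Summed signals of the hepatocyte, liver endothelial, bile duct, T cell and Kupffer cell lists overlapped between SM and control. Their part in the Axin2 values was not tested.

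Glul, glutamine synthetase, gave log2 signals of 10.59, 11.49 and 11.16 in control by its first probe. The SM arrays gave 10.40, 10.77, 10.83 and 10.94, and the SM + MSTF arrays 10.55, 11.02 and 11.34. The groups overlapped, and the control range of 0.90 exceeded every difference between group means. SM minus control was -0.34 (SE 0.24, adjusted p = 0.539), with a 95% interval of the fold of 0.541 to 1.15. It was -0.59 without control replicate 1 and -0.14 without control replicate 2. The second Glul probe gave 9.66, 10.88 and 10.63 in control, 9.84, 10.45, 10.23 and 10.50 in SM, and 10.17, 10.70 and 10.76 in SM + MSTF. Both probes ordered the 3 control rats alike. For SM + MSTF minus control the probes had opposite signs, -0.11 (SE 0.26) and 0.15 (SE 0.31), with adjusted p-values of 0.915 and 0.896. SM + MSTF minus SM was 0.23 and 0.29, with adjusted p-values of 0.650 and 0.635.

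Tbx3, a transcriptional repressor that beta-catenin signalling induces in liver, had log2 signals of 9.22, 9.88 and 8.55 in control. It had 9.62, 9.74, 9.39 and 9.30 in SM and 9.56, 9.87 and 10.02 in SM + MSTF. The control arrays spanned 1.33, more than the SM and SM + MSTF arrays together. SM + MSTF minus control was 0.60 (SE 0.29), a 1.52-fold difference with a 95% interval of 0.968 to 2.38 and an adjusted p of 0.548. It was 0.27 without control replicate 3 and 0.93 without control replicate 2. SM minus control was 0.30 (SE 0.27, adjusted p = 0.641), and it was -0.04 without control replicate 3. SM + MSTF minus SM was 0.31 (SE 0.27, adjusted p = 0.588).

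Rspo3, the R-spondin of the central vein, gave 7.93, 8.42 and 7.78 in control. The values were 8.21, 8.39, 8.25 and 8.04 in SM and 7.66, 8.02 and 8.13 in SM + MSTF. All groups overlapped. The differences were 0.18 (SE 0.17) for SM minus control, -0.11 (SE 0.18) for SM + MSTF minus control and -0.29 (SE 0.17) for SM + MSTF minus SM, with adjusted p-values of 0.662, 0.875 and 0.429. The summed signal of the 9 liver endothelial markers with a probe, of 13 listed, was 22124 to 22363 in control, 21559 to 23394 in SM and 18229 to 23434 in SM + MSTF. Kdr, the brightest of them at a mean log2 signal of 14.10, weighs most in this sum. Vwf, which the paper listed as lowered by SM, matched no probe by accession.

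Rnf43, the ubiquitin ligase that removes Wnt receptors, had 4.82, 5.40 and 6.02 in the control rats. The SM arrays gave 4.63, 4.89, 4.87 and 4.72, and the SM + MSTF arrays 4.88, 4.84 and 4.86. The treated arrays were tightly placed, and 1 of the 3 control arrays lay among them. SM minus control was -0.64 (SE 0.23, adjusted p = 0.192), a ratio of 0.643 with a 95% interval of 0.452 to 0.913. SM + MSTF minus control was -0.55 (SE 0.24, adjusted p = 0.513). SM and SM + MSTF differed by 0.08 (SE 0.23, adjusted p = 0.875), with a 95% interval of the fold of 0.746 to 1.51. Without control replicate 3 the SM difference was -0.34, and without control replicate 1 it was -0.93. With normexp background correction it was -0.28, and the SM + MSTF difference from control was also -0.28.

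Lgr5, the R-spondin receptor that marks pericentral hepatocytes, was well above background on 2 of 3 control arrays, 3 of 4 SM arrays and 1 of 3 SM + MSTF arrays. It was therefore not tested. Its log2 signals were 4.92, 4.19 and 4.46 in control, 5.07, 2.48, 4.76 and 4.79 in SM, and 3.71, 3.60 and 4.36 in SM + MSTF. Lef1, a TCF/LEF factor, was well above background on 0 of 10 arrays, with log2 signals from 1.93 to 2.17, and no fold is given.

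Ctnnb1, beta-catenin, gave different patterns by its 2 probes. The first probe gave 7.99, 7.92 and 8.15 in control, 8.22, 8.28, 8.10 and 8.32 in SM, and 9.21, 8.31 and 8.24 in SM + MSTF. All 3 SM + MSTF arrays lay above the control arrays, and replicate 1 of SM + MSTF stood far above the others. The difference was 0.56 (SE 0.22, adjusted p = 0.482), and it was 0.25 without that array. The second probe, printed in 10 spots on each array, gave 7.14, 6.78 and 6.69 in control, 7.22, 7.07, 7.19 and 7.33 in SM, and 6.99, 6.87 and 6.93 in SM + MSTF. By this probe SM minus control was 0.33 (SE 0.12, adjusted p = 0.201) and SM + MSTF lay below SM on every array, by -0.27 (SE 0.12, adjusted p = 0.308). By the first probe SM + MSTF minus SM had the opposite sign, 0.36 (SE 0.21, adjusted p = 0.420).

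**Figure D2:**
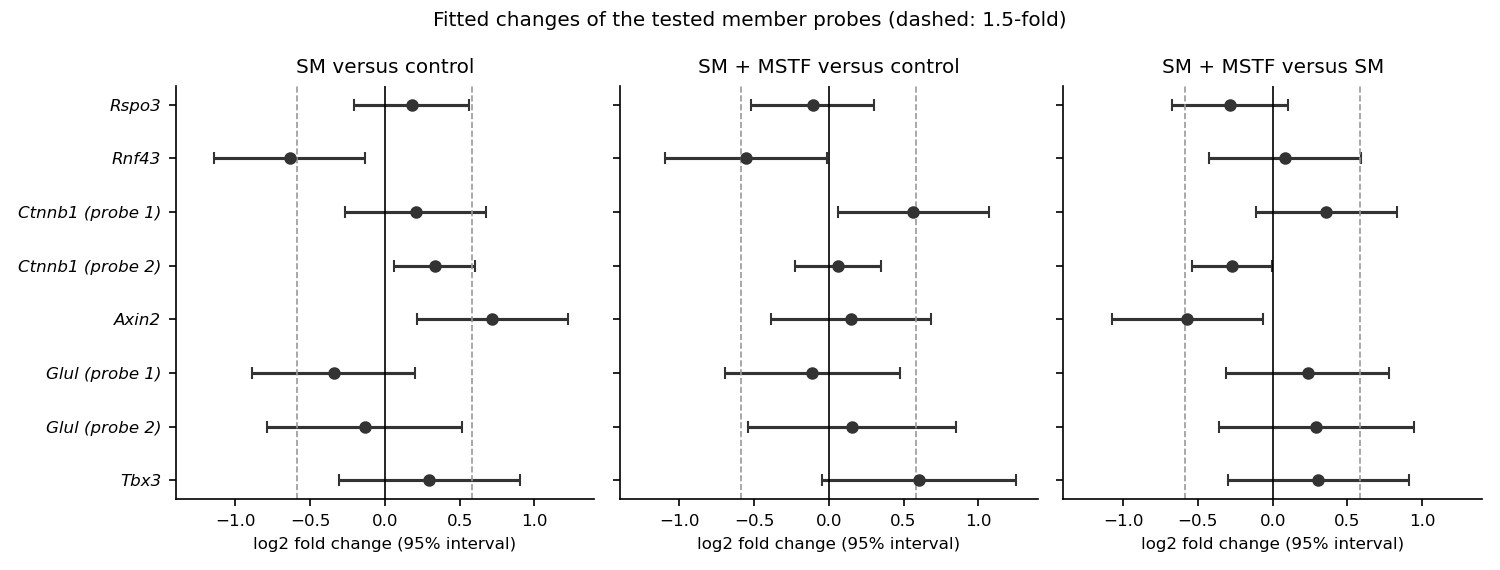
Fitted log2 fold change with its 95% interval (horizontal axis) of the 8 tested member probes in the 3 comparisons, with 1.5-fold dashed. Axin2 reaches 0.72 for SM against control and -0.57 for SM + MSTF against SM, and no probe passes the adjusted test.

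The wide spread of the control rats was the feature that most of the members shared. The SD of log2 signal over the 3 control arrays was larger than that of 95.1% of the tested probes for Axin2, 97.4% for Tbx3, 96.7% for Rnf43, and 93.8% and 97.2% for the probes of Glul. It was larger than that of 86.2% for Rspo3, whereas the Ctnnb1 probes lay at 37.1% and 72.7%. The median control SD of all tested probes was 0.152. In SM the same ranks were 47.5% for Axin2, 58.3% for Tbx3, 28.1% for Rnf43, 66.2% and 78.9% for Glul and 36.9% for Rspo3. In SM + MSTF they were 69.1% for Axin2, 62.1% for Tbx3, 82.7% and 75.9% for Glul, 64.2% for Rspo3 and 1.01% for Rnf43. The Ctnnb1 probes lay at 16.9% and 21.7% in SM and at 90.5% and 8.91% in SM + MSTF. All 3 control arrays were on 1 slide.

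**Figure D3:**
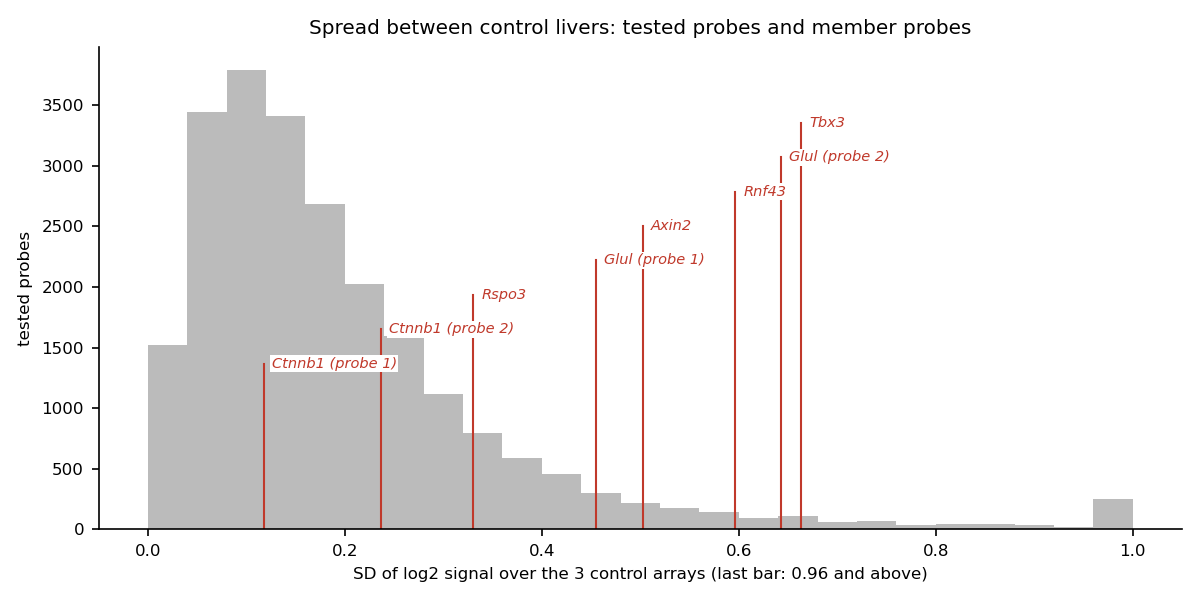
Number of tested probes (vertical axis) by the SD of log2 signal over the 3 control arrays (horizontal axis, last bar 0.96 and above), with the 8 tested member probes marked by lines whose heights only separate their names. Axin2, Rnf43, Tbx3 and both Glul probes lie in the right tail, beyond the median of 0.152.

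The spread of the control rats was then followed in the other zonated genes, an examination chosen after the values were seen. Control replicate 2 was the highest control for 4 of the 6 tested member genes (Glul, Axin2, Tbx3 and Rspo3), 10 of 13 other pericentral genes (76.9%) and 5 of 14 periportal genes (35.7%), against 25.3% of all probes. Its median deviation from the control mean was 0.39 in the members, 0.20 in the pericentral list and -0.0074 in the periportal list. The pericentral glutamate transporter Slc1a2 deviated by -0.46, 0.46 and 0.0041 in control replicates 1, 2 and 3, close to the -0.49, 0.41 and 0.08 of Glul. Oat, ornithine aminotransferase, deviated by -0.24, 0.45 and -0.21. Rhbg, an ammonium transporter, deviated by -0.15, 0.43 and -0.28. Cyp7a1, the rate-limiting enzyme of bile acid synthesis, went otherwise, with 0.98, -0.19 and -0.79. Among the periportal genes, G6pc1 (0.26, 0.86 and -1.12) and Pck1 (-0.32, 0.73 and -0.41), both of gluconeogenesis, deviated most. The median control SD was 0.264 for the pericentral and 0.124 for the periportal list. Among the pericentral genes just named, a wide spread was not confined to control. SDs in control, SM and SM + MSTF were 0.46, 0.54 and 0.82 for Slc1a2, and 0.39, 0.18 and 0.68 for Oat. They were 0.38, 0.09 and 0.19 for Rhbg, and 0.90, 1.07 and 1.41 for Cyp7a1. The control values are of 3 rats, and none of these values carries a test.

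**Figure D4:**
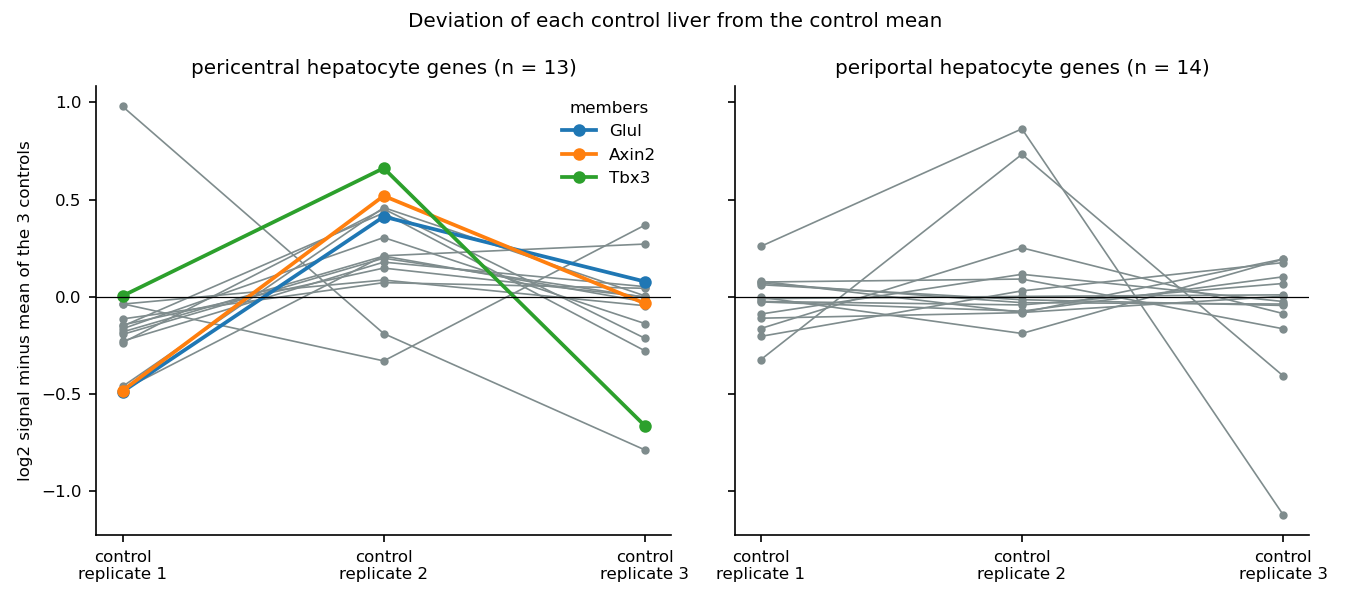
Deviation of each control rat from the control mean (vertical axis, log2 signal) for 13 pericentral genes with the members Glul, Axin2 and Tbx3 in colour (left) and 14 periportal genes (right). Lines join the values of 1 gene and the rats have no order, and control replicate 2 is the highest for 10 of the 13 pericentral and 5 of the 14 periportal genes.

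Of 111 other genes of the pathway and of liver zonation, in 9 lists, 89 matched a probe by accession and 63 were tested. Tcf7 matched none and was not tested here, although the paper listed it as raised by SM on these arrays. Against control, 0 of the 63 were called in SM and 0 in SM + MSTF, beside 2.41% and 0% of all probes. Between SM + MSTF and SM, 1 was called, beside 1.26%. An unadjusted limma p under 0.05 was found for 9, 8 and 10 of the 63, beside 16.4%, 9.54% and 15.9% of all probes. The 1 called gene was the pericentral Rhbg. Its log2 signal was 9.31, 9.89 and 9.18 in control, 9.90, 9.87, 9.84 and 10.04 in SM, and 8.88, 9.25 and 9.04 in SM + MSTF. All SM + MSTF arrays lay below all SM arrays, and Rhbg fell by 0.86 on the log2 scale (SE 0.17, adjusted p = 0.0431). The call was lost when any SM or SM + MSTF array or control replicate 1 was left out, with adjusted p-values from 0.0622 to 0.137.

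Of the 13 pericentral genes tested in SM + MSTF versus SM, Rhbg included, 0 rose and 1 fell, and their median difference was 0.08, beside -0.02 over all probes. The fitted differences of Slc1a2 (-0.93, SE 0.41, adjusted p = 0.305) and Cyp7a1 (-0.86, SE 0.74, adjusted p = 0.581) were of the size of that of Rhbg, with wider errors. In SM versus control the medians were 0.15 for the pericentral list, -0.07 for the 14 periportal genes and 0.03 for all probes, with no gene called. Rhbg was also the pericentral gene of lowest p there, at 0.45 (SE 0.17, adjusted p = 0.212). In SM + MSTF versus control it was Aldh1a1, a retinaldehyde dehydrogenase, at 0.90 (SE 0.28, adjusted p = 0.424). The periportal genes of lowest p were Hal, which breaks down histidine, at -0.21 in SM (adjusted p = 0.408) and Aldh1b1 at -0.67 in SM + MSTF (adjusted p = 0.398), both against control.

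Among the ligands, 4 of 18 genes were tested. Wnt4 was at 5.85, 5.99 and 5.77 in control, 5.49, 5.56, 5.60 and 5.01 in SM, and 5.97, 5.99 and 5.82 in SM + MSTF. Its SM arrays lay below the arrays of both other groups, by -0.45 against control (SE 0.15, adjusted p = 0.153), and SM + MSTF stood 0.51 above SM (SE 0.15, adjusted p = 0.148). Wnt1 had the lowest p of the ligands in SM + MSTF versus control but was well above background on 0 arrays of either group, so no fold is given. Porcn, which acylates Wnt proteins for secretion, had differences of -0.08 from control in both SM and SM + MSTF, and its other probe had 0.04 and -0.32, the first of opposite sign. Neither passed the test.

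Of the receptors, 7 of 18 genes were tested. Ror2, a receptor tyrosine kinase for Wnt5a, was 0.44 higher in SM than in control (SE 0.18, adjusted p = 0.266). Fzd2, a Frizzled receptor, was 0.87 higher in SM + MSTF than in control (SE 0.35, adjusted p = 0.483). Neither passed the test.

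Inside the cell, 11 of 13 genes of signal transduction and the destruction complex were tested. Apc, the scaffold of the complex that marks beta-catenin for degradation, was at 7.50, 7.46 and 7.28 in control, 7.78, 7.81, 7.99 and 7.74 in SM, and 7.57, 7.61 and 7.55 in SM + MSTF. Its SM arrays lay above all others, with 0.42 against control (SE 0.09, adjusted p = 0.0517). A second Apc probe had the opposite sign, with -1.11 in SM and -1.08 in SM + MSTF against control, where the first had 0.42 and 0.16. Between SM + MSTF and SM the second probe had 0.03 and the first -0.25. Gsk3a, a kinase of the same complex, was 0.26 higher in SM + MSTF than in control (SE 0.13, adjusted p = 0.563). Bcl9, a coactivator that binds beta-catenin, was the TCF/LEF partner of lowest p in both comparisons with control. Its probe was well above background on 8 arrays and not on the others. Its log2 signals were lowest in control, at 4.82, 4.81 and 4.20. Bcl9 was 0.61 higher in SM (SE 0.17, adjusted p = 0.103) and 0.60 higher in SM + MSTF (SE 0.18, adjusted p = 0.423). With normexp background correction it was 0.17 higher in both.

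Of the secreted inhibitors 3 of 14 were tested. Dkk3, of the Dickkopf family, was at 4.43, 4.73 and 4.68 in control, 4.64, 4.70, 4.55 and 4.97 in SM, and 5.22, 5.07 and 5.17 in SM + MSTF. Its probe was well above background on 9 of 10 arrays. All SM + MSTF arrays lay above the others, by 0.54 against control (SE 0.13, adjusted p = 0.390), while SM minus control was 0.10 (SE 0.12, adjusted p = 0.748). Among 3 tested feedback and target genes outside the members, Ccnd1, cyclin D1, was at 10.70, 11.27 and 11.33 in control, 9.97, 10.23, 10.41 and 10.53 in SM, and 10.14, 11.35 and 10.45 in SM + MSTF. Its SM arrays lay below the control arrays, by -0.82 (SE 0.28, adjusted p = 0.179), and SM + MSTF minus control was -0.45 (SE 0.30, adjusted p = 0.656), from -0.81 to -0.20 when 1 array was left out.

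The named gene whose log2 signal followed each member most closely was taken over the 10 arrays and 11790 probes. Pearson's r was 0.919 for Glul with Vegfc, 0.916 for Axin2 with C5h1orf210, 0.911 for Tbx3 with Mtmr3, 0.881 for Rnf43 with Rap1a, 0.964 for Ctnnb1 with Rexo4 and 0.914 for Rspo3 with Sil1. Other probes of Mtmr3 and Rap1a followed less closely, at 0.67 and 0.22 with Tbx3 and at 0.15 and 0.21 with Rnf43. The Ctnnb1 value is of its first probe, with 9.21 in SM + MSTF replicate 1 against 7.92 to 8.32 on the other arrays. Its second probe, at 6.99 in that replicate, was not compared in this way. Each value is the highest of many, over arrays that share groups and slides, and is a description.

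Slides bear on all of these values. The first held the 3 control arrays and SM + MSTF replicate 3, the second the 4 SM arrays, and the third the other 2 SM + MSTF arrays. SM and the second slide cannot be told apart. Within the first slide, SM + MSTF replicate 3 minus the control mean was 0.81 for Tbx3, -0.55 for Rnf43, 0.21 for Ctnnb1, 0.26 for Glul, -0.15 for Axin2 and 0.09 for Rspo3. The last 3 have the opposite sign to the comparison over all arrays. Across arrays, 51.9% to 58.6% of probes were well above background in control, 57.3% to 61.4% in SM and 53.4% to 57.9% in SM + MSTF. All 7 hepatocyte markers were well above background on all 10 arrays.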

How the data were processed

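Gene expression was measured on one-colour Agilent Whole Rat Genome arrays in 10 livers, 1 array per rat, grouped from the labels. The authors read each spot with Feature Extraction 10.7, which gave a background-subtracted intensity and marks for spots that are not uniform or not well above background. Quantile normalization by the authors, in GeneSpring, gave the deposited log2 values, used here as an alternative.

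Starting from the deposited intensity, all 10 arrays were quantile normalized together and log2 transformed, and spots of the same probe were averaged (R 4.3.3, limma 3.58.1). Control spots and non-uniform spots did not enter. Of 41012 probes, 17512 were named through accessions in a RefSeq table of GRCr8. Apart from those of the Axin2 and Glul promoter stretches, no coordinates are given, since the array design predates this assembly. A probe was tested if all arrays of 1 group or more had it well above background, which left 22991 probes for 1 limma fit, with Benjamini-Hochberg adjustment over all of them. The script was tested on simulated data. Quantile normalization sets all arrays to 1 distribution, so a change of total RNA is not seen. No spot was saturated. Precision is limited by the number of arrays, and p-values set a group difference against the spread between rats of the same group. The control arrays lay on 1 slide and the SM arrays on another, so the spread within these groups holds no variation between slides.

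The members and lists were chosen with earlier results of these data known. Named genes are the members, by the probe of highest mean signal with other probes where they differ in sign, the list genes called, the tested gene of lowest p in each pathway list in the comparisons with control, and the closest gene to each member. Slc1a2, Oat, Cyp7a1, G6pc1, Pck1, Cd79b, Col1a1, Col3a1, Dcn, Kdr and Marco were named after their values were seen. Tcf7 and Vwf were named from the paper. Lists of hepatocytes and 6 other cell types were counted. Of their 37 tested markers, 0 were called in any comparison. An unadjusted limma p under 0.05 was found for 3 in SM against control, beside 16.4% of all probes. It was found for 4 in SM + MSTF against control, beside 9.54%, and for 5 in SM + MSTF against SM, beside 15.9%.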

Additional observations from a re-analysis of the deposited data

Results flagged for a closer look

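Lgr5 in SM replicate 2 stood apart from the rest of its group. Its log2 signal was 2.48, and the nearest of the other SM arrays was at 4.76, a gap of 0.880 of the range of the group, past Dixon's critical value for 4 samples. The probe was not well above background on that array. Of the 10 member probes checked in this way, 1 stood out. Chance marks about 1 in 20 groups, and each probe has more than 1 group, so this rate is not a rate per probe.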

How the results depend on the processing

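Of 720 values recomputed for 37 results, 691 kept their direction and side of the threshold, 16 changed sign and 0 newly passed. No member probe was called under any alternative with an adjusted p. The methods' t-test gave 1 in SM versus control, Axin2. Rnf43 in SM + MSTF versus SM was -0.040 by 75th percentile scaling and -0.000107 by normexp background correction, and Dkk3 in SM versus control was -0.027 by normexp. With slide as a fixed block, which rests on SM + MSTF replicate 3 and could not be fitted for SM, the values in SM + MSTF versus control were 0.26 for Glul, -0.15 for Axin2 and 0.085 for Rspo3. The other probe gave 0.15 for Glul in SM + MSTF versus control and -0.27 for Ctnnb1 in SM + MSTF versus SM. Leaving out each array in turn gave 0 member probes in every comparison. Against control, the ranges that crossed 0 were -0.24 to 0.091 for Porcn in both SM and SM + MSTF, -0.036 to 0.63 for Tbx3 in SM, and, in SM + MSTF, -0.093 to 0.41 for Axin2, -0.35 to 0.10 for Glul and -0.24 to 0.077 for Rspo3. The Axin2 difference in SM ranged from 0.45 to 0.98, with adjusted p-values from 0.0855 to 0.335. The Rhbg call was also lost by normexp (0.0560), without a filter on dim probes (0.0740), with only probes well above background on all arrays (0.0534), with the replicate block (0.0839) and with slide as a random block (0.107), while its log2 difference stayed between -0.95 and -0.77. By normexp, Wnt4 (-0.19) and Ror2 (0.23) in SM and Dkk3 (0.15) in SM + MSTF, all against control, had smaller differences. The causes were not tested.

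Probes called over the whole table were 553 (SM against control), 0 (SM + MSTF against control) and 290 (SM + MSTF against SM). In the same order they were 226, 0 and 60 by normexp, 342, 0 and 269 without the filter, 336, 0 and 140 with only probes well above background on all arrays, and 85, 0 and 102 with slide as a random block. Fitting only the groups compared gave 714, 0 and 147. SM versus control had 61 without control replicate 2, and SM + MSTF versus control had 248 without SM + MSTF replicate 3 and 291 with the fixed slide block. Same-numbered arrays correlated by -0.0991 to 0.169, with 3 of 9 pairs over 0.1 and 4 of 9 closest to their own number. No clear pairing by number was seen, but 9 pairs that share arrays are too few to exclude one. The replicate block gave 0 member probes, and 53, 0 and 64 probes over the table. Faint signal limits Lgr5 and Lef1.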
